A study of Mus musculus with 5 samples.

Results

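The REV-ERB, ROR and thyroid hormone receptors are nuclear receptors, transcription factors of related structure that bind DNA as monomers or in pairs. *Nr1d1* and *Nr1d2* encode REV-ERB alpha and beta, *Rora* and *Rorb* encode ROR alpha and beta, and *Thra* and *Thrb* encode the thyroid hormone receptors alpha and beta. Their expression was compared in dorsal skin of *Clock* mutant and wild-type mice. All probe sets that the platform annotation assigned to 1 of these 6 genes alone were taken (of 18193 genes named on the array), which gave 19 of the 45037 probe sets that were not controls. No further probe set named a member together with another gene (0). *Nr1d1* had 1 probe set, *Nr1d2* 2, *Rora* 9, *Rorb* 3, *Thra* 3 and *Thrb* 1.

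RNA was taken at postnatal day 23 from the dorsal skin of 5 mice, 2 of them *Clock* mutants and 3 their wild-type littermates, and that of each mouse was put on its own Affymetrix whole-genome array. The mice were in a C57BL/6J background per the study's methods, and every sample was staged by histology as telogen, when hair follicles rest. *Clock* mutant replicate 1 was male, while *Clock* mutant replicate 2 and the 3 wild-type mice were female, so that sex is partly confounded with genotype. The *Clock* mutation lies in the germline and therefore affects every tissue, the central clock included, and clock gene levels vary with the hour at which skin is taken. The study names its staged *Clock* mutants as *Cl/Cl* and gives an afternoon window of collection for its time-course skin, but neither is stated for the arrayed mice.

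In the circadian clock, CLOCK and BMAL1 activate genes through E-boxes. Among these genes are the REV-ERBs, which in turn repress *Arntl*, the gene of BMAL1, through response elements (RREs) that the RORs also bind as activators. REV-ERBs lack the helix that recruits coactivators, take haem as ligand and repress through the corepressor NCOR and the deacetylase HDAC3. Thyroid hormone receptors usually bind with a retinoid X receptor (RXR) as partner and act on hair growth and epidermal differentiation in skin. In the mouse genome *Thra* overlaps *Nr1d1* on the opposite strand of chromosome 11, and *Thrb* lies close to *Nr1d2* on chromosome 14. *Rora* lies on chromosome 9 and *Rorb* on chromosome 19.

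The regions upstream of the REV-ERB genes are shown because the values of these 2 genes lay on opposite sides of wild type. Each sequence holds the 250 bases before the annotated start (RefSeq, GRCm38.p6, minus strand, chr11:98775378-98775627 for *Nr1d1* and chr14:18239107-18239356 for *Nr1d2*), with matches to the searched motifs in capitals.
Nr1d1: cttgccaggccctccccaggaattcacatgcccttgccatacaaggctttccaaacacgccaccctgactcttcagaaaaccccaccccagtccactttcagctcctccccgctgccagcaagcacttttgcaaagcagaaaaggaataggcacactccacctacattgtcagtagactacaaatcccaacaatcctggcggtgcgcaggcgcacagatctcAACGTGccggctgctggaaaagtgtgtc
Nr1d2: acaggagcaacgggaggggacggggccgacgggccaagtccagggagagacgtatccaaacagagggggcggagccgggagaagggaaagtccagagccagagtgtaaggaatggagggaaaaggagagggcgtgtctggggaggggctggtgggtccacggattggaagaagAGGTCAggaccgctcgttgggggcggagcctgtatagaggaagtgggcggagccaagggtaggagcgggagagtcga
Both strands were searched, from 250 bases before to 50 bases after the start, for the E-box CACGTG, the E′-box CACGTT, the receptor half-site AGGTCA and the D-boxes TTATGTAA and TTATGCAA. The *Nr1d1* window held 1 E′-box, on the opposite strand and starting at -28 from the start site, and the *Nr1d2* window held 1 half-site at -77. The E-box occurred in 7.15% of 32851 promoter windows, the E′-box in 4.68% and the half-site in 16.3%, and the D-boxes in 0.938% and 0.743%. Of the other windows, one of *Thrb* held a half-site at -184, another of *Thrb* an E-box at -193 and one of *Rorb* an E′-box at -234, each for a different annotated start. These matches describe the letters of the windows and do not show binding. RefSeq windows were found for 5 of the 6 genes.

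*Nr1d1* was higher and *Nr1d2* lower in *Clock* mutant than in wild-type skin, each without overlap of the groups, whereas *Thra* had differences close to 0 and most of the *Rora* probe sets had small differences. No receptor probe set passed the adjusted threshold. Of the 19 probe sets, 14 had a mean on the log2 scale above the filter, equal to an intensity of 56.7, and were tested, and 0 of them passed at a Benjamini-Hochberg adjusted p of 0.05 in limma, at which 0.0888% of all 27022 tested probe sets passed (0.0148% higher and 0.074% lower in mutants). At an unadjusted p under 0.001 there was 1 of 14, against a background of 0.548%, and at an unadjusted p under 0.05 there were 3 of 14, against 10.8%. Of these 3, 1 was higher and 2 were lower, against 4.09% higher and 6.71% lower over all tested probe sets. The groups did not overlap in 4 of the 14, 1 with the mutants above and 3 with the mutants below, and over all tested probe sets this held for 27.9%, with 12.8% above and 15.1% below. The share of receptor probe sets without overlap was thus close to the background. The median log2 difference was -0.09 over the 14 and -0.02 over all tested probe sets. Log2 differences are given as *Clock* mutant minus wild type throughout, with the standard error (SE) from limma. The array measures a mixture of cells, in which fewer cells of a type and less RNA per cell cannot be told apart.

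**Figure D1:**
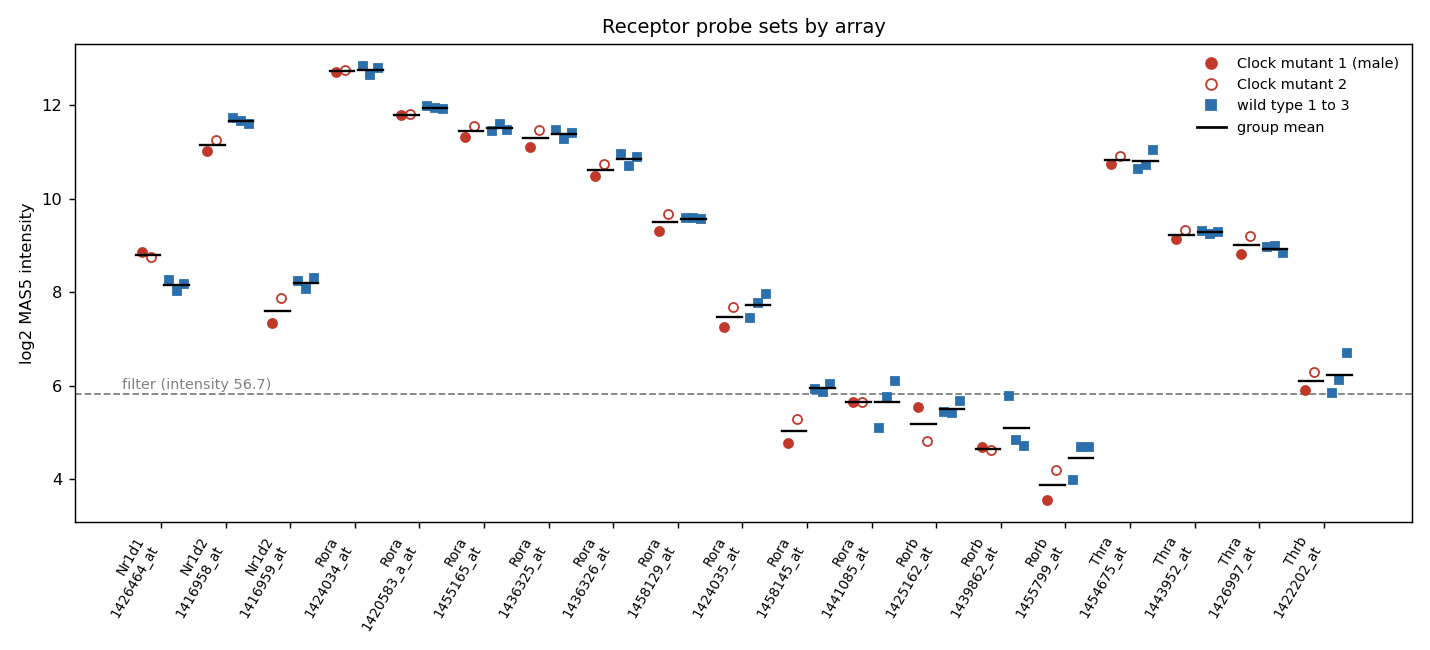
Log2 MAS5 intensity (vertical axis) of the 19 receptor probe sets (horizontal axis) on each array; red circles are *Clock* mutants (filled, replicate 1), blue squares are wild type, bars are group means and the dashed line is the filter at an intensity of 56.7. The mutants lie above wild type at *Nr1d1* and below it at both *Nr1d2* probe sets, and all 3 *Rorb* probe sets have group means under the filter.

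*Nr1d1* (Entrez 217166) encodes REV-ERB alpha, the repressor that links the positive and negative limbs of the clock. Its probe set 1426464_at had an intensity of 466.7 in *Clock* mutant replicate 1 and 428 in replicate 2, and of 308, 259 and 289 on the 3 wild-type arrays in the order of their numbers. Both mutants thus lay above all 3 wild-type mice. The means were 447 ± 27.4 (SD, n = 2) and 286 ± 24.9 (SD, n = 3), a 1.57-fold difference (log2 difference 0.65, SE 0.141, 95% interval 0.33 to 0.97). The unadjusted p was 0.00128, at rank 172 of 27022, and the limma adjusted p was 0.2. An absolute difference of this size or more was seen in 3.1% of the tested probe sets.

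With 1 probe set, the value for *Nr1d1* could not be compared with that of another part of the message. The platform annotation lists no sequence accession for it, and its position relative to the overlap with *Thra* was not tested. Among the females alone, without *Clock* mutant replicate 1, the log2 difference was 0.59.

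*Nr1d2* (Entrez 353187) encodes REV-ERB beta, which overlaps with REV-ERB alpha in its targets. At its brighter probe set 1416958_at *Clock* mutant replicate 1 had an intensity of 2071 and replicate 2 of 2441, against 3384, 3211 and 3097 on the wild-type arrays. Both mutants were below the lowest wild-type mouse. The mutant mean was 2256 ± 262 (SD, n = 2) and the wild-type mean 3231 ± 145 (SD, n = 3), which was 1.44-fold higher (log2 difference -0.52, SE 0.094, 95% interval -0.73 to -0.31). Its unadjusted p of 0.00035 was the smallest among the receptor probe sets and had rank 76 of all those tested, with a limma adjusted p of 0.124. An absolute difference of this size or more was seen in 5.94% of the tested probe sets. Without *Clock* mutant replicate 2 the difference was -0.64 with a limma adjusted p of 0.0386, the one setting in which a receptor probe set passed. In that fit, with a lone mutant array, 239 probe sets passed in all, against 24 with every array.

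The dimmer *Nr1d2* probe set, 1416959_at, had the same direction. Its intensity was 161 and 236 in the mutants and 300.5, 269 and 316 in wild-type skin, again without overlap. The log2 difference was -0.59 (SE 0.193, 95% interval -1.03 to -0.16, limma adjusted p = 0.362). The 2 probe sets of the gene therefore gave differences that lay 0.073 apart. In both, *Clock* mutant replicate 1, the male, was the lower of the mutants, and without it the values were -0.40 and -0.32.

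The direct comparison of the REV-ERB genes used the log2 intensity of *Nr1d1* minus that of the brighter *Nr1d2* probe set within each array. Any factor that scales a whole array cancels in it, whereas an effect on single probe sets does not. *Clock* mutant replicate 1 had a value of -2.15 and replicate 2 of -2.51, whereas the wild-type arrays were at -3.46, -3.63 and -3.42. The genotypes did not overlap, and their means of -2.33 and -3.50 differed by 1.17. This value combines the differences of both genes given above, so that its lack of overlap adds no separate evidence. The spread within a genotype was smaller, with SDs of 0.256 (n = 2) and 0.113 (n = 3). The exact permutation test over arrays gave p = 0.2 (two-sided), which is the smallest p that 2 arrays against 3 allow. Since the absolute value depends on the brightness of each probe set, only its difference between genotypes is read.

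**Figure D2:**
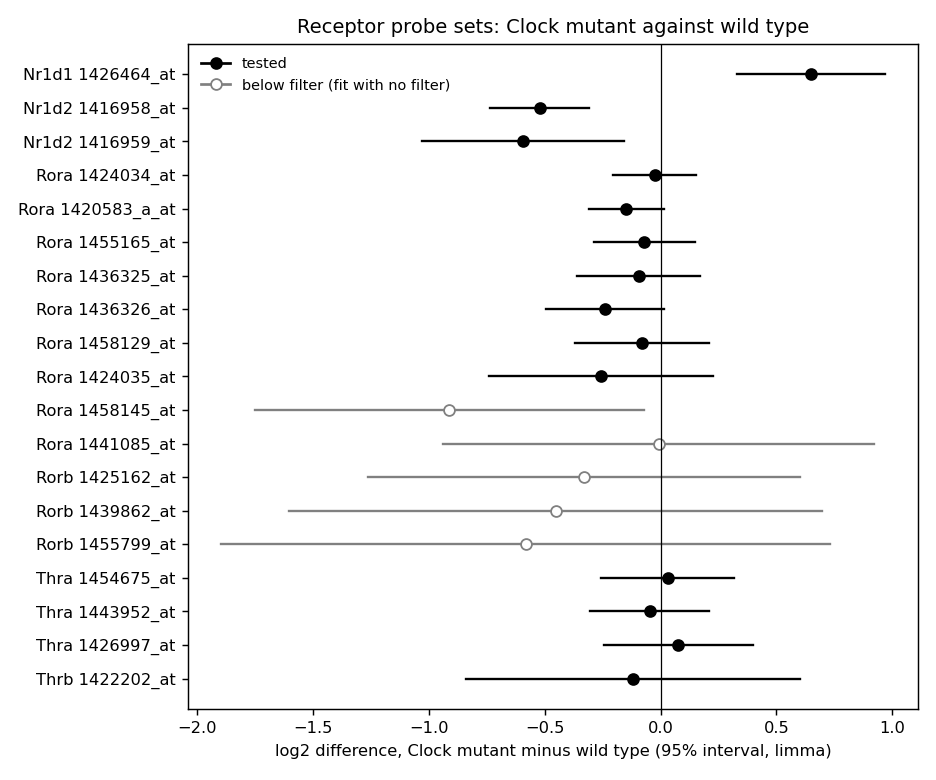
Log2 difference of *Clock* mutants from wild type (horizontal axis) for each of the 19 receptor probe sets (vertical axis); points are estimates and lines 95% intervals from limma, filled for tested probe sets and open for those below the filter, which were fitted with no filter. The interval lies above 0 for *Nr1d1* (0.33 to 0.97), below 0 for both *Nr1d2* probe sets, and spans 0 for the 3 *Thra* probe sets.

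*Rora* (Entrez 19883) encodes ROR alpha, the activator that competes with the REV-ERBs for RREs. Of its 9 probe sets 7 were tested, and they ranged over intensities of 152 to 7318. All 7 had negative differences, from -0.26 to -0.03, none past the adjusted threshold, and after median centring of the arrays 3 of the 7 were positive. Without *Clock* mutant replicate 1, 4 of the 7 were positive. The brightest, 1424034_at, had an intensity of 6661 and 6916 in the mutants and 7318, 6379 and 7060 in wild-type skin, so that the mutants lay within the wild-type range (log2 difference -0.03, SE 0.079, 95% interval -0.20 to 0.15, limma adjusted p = 0.929). The interval does not reach the estimate of either *Nr1d2* probe set, but it overlaps the interval of *Nr1d2* 1416959_at (-1.03 to -0.16). The interval of *Rora* 1424035_at, from -0.74 to 0.23, includes both *Nr1d2* estimates.

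1 tested *Rora* probe set showed no overlap of the groups. At 1420583_a_at the intensity was 3507 and 3590 in the mutants and 4030, 3895 and 3870 in wild-type skin (log2 difference -0.15, SE 0.072, limma adjusted p = 0.495). The probe set 1436326_at was at -0.24 (SE 0.113, limma adjusted p = 0.482), with *Clock* mutant replicate 2 at 1695 and so above wild-type replicate 2 at 1654. The 4 other tested probe sets, 1455165_at, 1436325_at, 1458129_at and 1424035_at, were at -0.07, -0.09, -0.08 and -0.26, with overlap in each. In all 4 *Clock* mutant replicate 1 was the lower of the mutants.

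The 2 *Rora* probe sets below the filter were imprecise. The probe set 1458145_at had an intensity of 27.5 and 39.3 in the mutants and of 61.3, 58.3 and 66 in wild-type skin, the largest difference of the family at -0.91 (95% interval -1.75 to -0.07). In the fit with no filter its limma adjusted p was 0.571. MAS5 values of this dimness carry large errors. The other, 1441085_at, differed by -0.01 (95% interval -0.94 to 0.92) at 50.2 and 50 in the mutants and 34.3 to 69 in wild-type skin.

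*Rorb* (Entrez 225998), whose product ROR beta is known from retina and brain, was dim on all arrays. Its 3 probe sets had intensities of 11.7 to 54.7, below the filter, and none was tested in the comparison. With no filter their differences were -0.33 (1425162_at), -0.45 (1439862_at) and -0.58 (1455799_at), with intervals from -1.89 to 0.73 for the last, and the limma adjusted p lay between 0.818 and 0.86. The sign of the first depended on 1 array, since it was 0.02 without *Clock* mutant replicate 2. The groups did not overlap at 1439862_at, where 25.8 and 24.6 in the mutants lay just below the lowest wild-type value of 26.1. At this signal a difference in *Rorb* was not detectable.

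*Thra* (Entrez 21833) encodes thyroid hormone receptor alpha and, by alternative splicing, a variant that does not bind the hormone. The brightest of its 3 probe sets, 1454675_at, had an intensity of 1711 and 1924 in the mutants and of 1579, 1692 and 2097 in wild-type skin. The mutants lay inside the wild-type range, and the log2 difference was 0.03 (SE 0.127, 95% interval -0.26 to 0.32, limma adjusted p = 0.948). The probe set 1443952_at, at intensities of 563 to 639, differed by -0.05 (95% interval -0.30 to 0.21) and 1426997_at, at 450.2 to 586, by 0.08 (95% interval -0.25 to 0.40). All 3 upper bounds lie below the *Nr1d1* estimate of 0.65, but that of 1426997_at lies inside the *Nr1d1* interval of 0.33 to 0.97. A difference between these genes was not tested. After median centring all 3 differences were positive.

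*Thrb* (Entrez 21834) encodes thyroid hormone receptor beta, the form that mediates feedback on the pituitary. Its probe set 1422202_at was dim, with an intensity of 60.5 and 78 in the mutants and of 57.4, 69.3 and 104 in wild-type skin. The groups overlapped and the log2 difference was -0.12 (SE 0.319, limma adjusted p = 0.919). The 95% interval of -0.84 to 0.60 includes changes of the size seen at either REV-ERB gene, and the sign turned to 0.12 without wild-type replicate 3, the brightest array for this probe set, and to 0.07 without *Clock* mutant replicate 1.

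**Figure D3:**
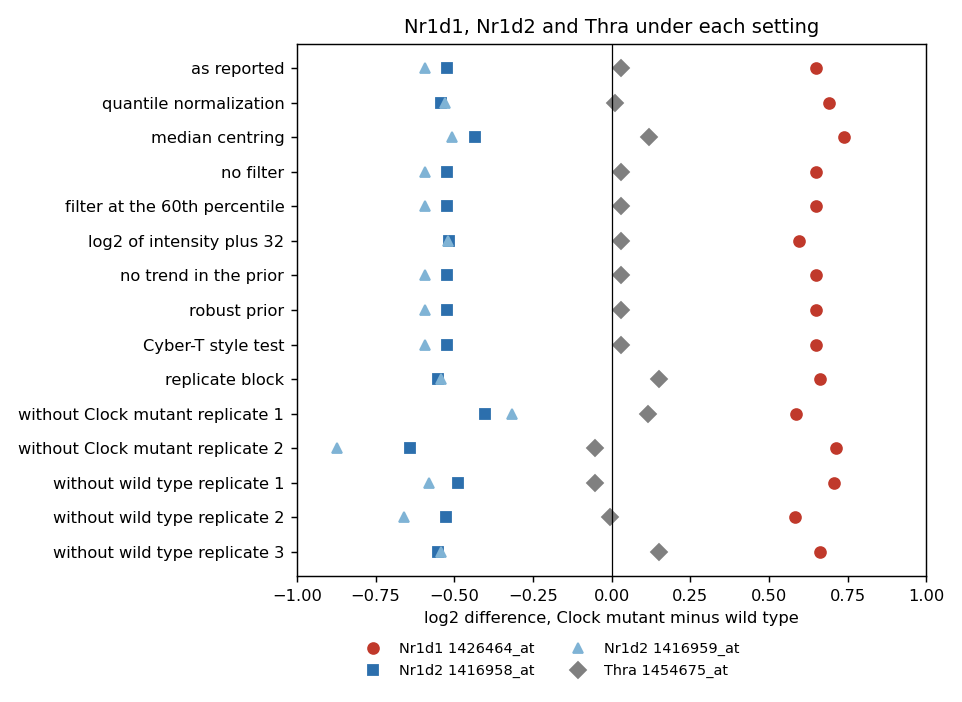
Log2 difference of *Clock* mutants from wild type (horizontal axis) for *Nr1d1*, both *Nr1d2* probe sets and the brightest *Thra* probe set under each setting of the processing (vertical axis). *Nr1d1* stays between 0.58 and 0.74 and *Nr1d2* below 0 under all settings shown, while *Thra* crosses 0. Settings that change only the filter, the prior or the test repeat the reported value.

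Genes with RREs, the targets that REV-ERBs repress and RORs activate, did not share a direction. A list of 6 such genes was fixed, 5 had a tested probe set, and 0 of these rose or fell past the adjusted threshold. 2 had positive and 3 negative differences, with a median of -0.05 beside a median of 0.02 over all 12955 genes. *Arntl*, the gene of BMAL1, had an intensity of 926 and 1147 in the mutants and of 599.6, 714 and 621 in wild-type skin (log2 difference 0.68, SE 0.132, limma adjusted p = 0.158), and so lay on the same side as *Nr1d1*. Its dimmer probe set differed by 0.10.

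*Cry1*, a repressor of CLOCK and BMAL1, lay on the side of *Nr1d2*, at 300.3 and 339 in the mutants and 507, 596 and 455 in wild-type skin (-0.69, SE 0.15, limma adjusted p = 0.197). *Nfil3*, a bZIP repressor that acts at D-boxes, was at -0.57 (SE 0.139, limma adjusted p = 0.254), also without overlap of the groups. *Npas2*, a relative of *Clock*, was at 0.34 (SE 0.186), and the brightest *Clock* probe set at -0.05 (SE 0.093), with the mutants at 1105 and 1133 beside a wild-type range of 1111 to 1201. The dimmest *Clock* probe set, at 121 and 155 in the mutants and 188, 224 and 181 in wild-type skin, was at -0.53 (limma adjusted p = 0.4), and the other tested *Clock* probe sets were at 0.25 and 0.04, with overlap of the groups. The array was not used to tell the alleles apart.

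The retinoid receptors belong to the same superfamily, and *Rarb* neighbours *Thrb* on chromosome 14. Of 6 RAR and RXR genes 5 were tested and 0 passed, 4 with positive and 1 with a negative difference (median 0.13). *Rarg*, the main RAR of epidermis, was at 774 and 827 in the mutants and 1014, 1040 and 1230 in wild-type skin (log2 difference -0.45, SE 0.115, limma adjusted p = 0.273), without overlap, and its other probe set was at -0.98. Of the RXR partners, *Rxrg* was at 0.37 (SE 0.146), *Rxrb* at 0.13 (SE 0.11) and *Rxra*, the most widespread RXR, at 0.13 (SE 0.094), and the dimmer tested *Rxra* probe set was at -0.27. *Rarb* was at 0.28 (SE 0.241), and the *Rara* probe set lay below the filter on all arrays. It was at 8.81 and 9.3 in the mutants and 31.6, 48.6 and 32.2 in wild-type skin, without overlap, a log2 difference of -2.02 (limma adjusted p = 0.426 in the fit with no filter).

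**Figure D4:**
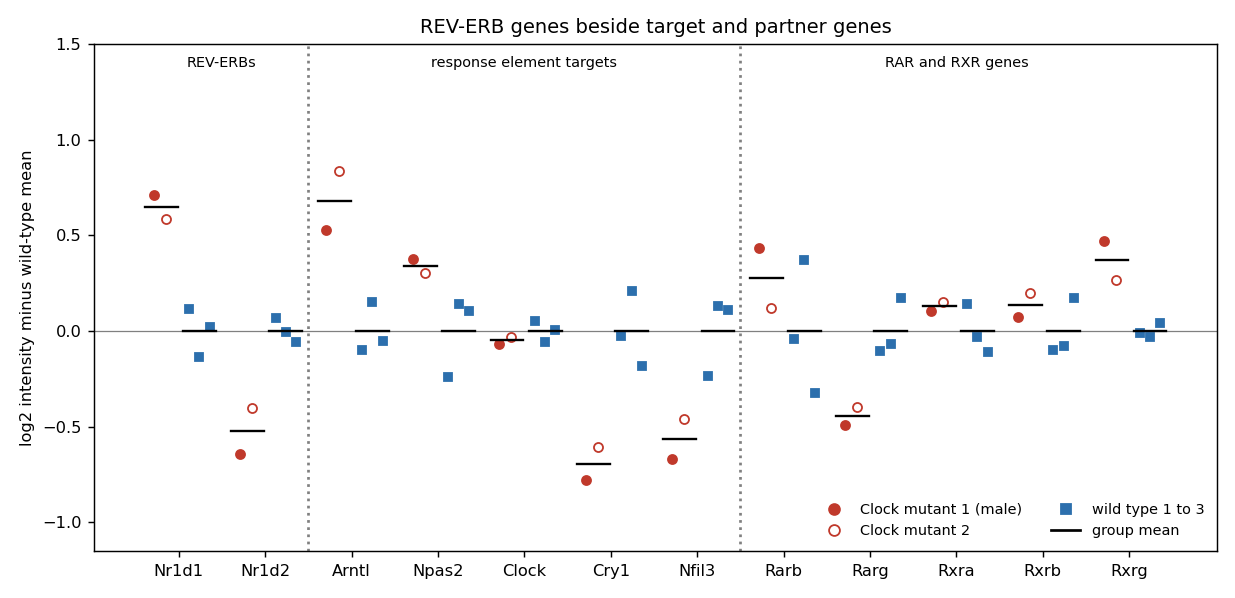
Log2 intensity of each array minus the wild-type mean (vertical axis) for *Nr1d1* and *Nr1d2*, 5 RRE genes and 5 RAR and RXR genes (horizontal axis), each at its brightest tested probe set; red circles are *Clock* mutants (filled, replicate 1), blue squares are wild type and bars are group means. The mutant bar of *Arntl* is at 0.68 and that of *Cry1* at -0.69, and both mutants lie close to 0 at *Clock*.

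Cofactors of these receptors mostly had small differences. Of 8 coactivator genes all were tested and 0 passed, 3 with positive and 5 with negative differences (median -0.06). At the brightest tested probe set of each gene, *Ppargc1b*, which encodes the coactivator PGC-1 beta, stood apart. It was at 815 and 709 in the mutants and 492, 484 and 489 in wild-type skin (log2 difference 0.64, SE 0.116, limma unadjusted p = 0.000363, limma adjusted p = 0.126). A dimmer *Med1* probe set was at -0.76 without overlap of the groups (SE 0.191, limma adjusted p = 0.262). The other tested *Med1* probe sets were at -0.06 and 0.14, with overlap. *Ncoa3*, a steroid receptor coactivator, was at -0.19 (SE 0.132). Of 6 corepressor genes 4 were tested and 0 passed (median 0.03). Among these were *Tbl1x* (0.16, SE 0.081) and *Tbl1xr1* (0.06, SE 0.098), subunits of the NCOR complex. Dimmer tested probe sets were at 0.08 and -0.17 for *Tbl1x* and between 0.01 and 0.14 for *Tbl1xr1*, all with overlap of the groups.

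Genes of REV-ERB protein turnover and of its ligand haem did not pass either. Of 5 turnover genes 0 passed (median 0.01), among them the ubiquitin ligase genes *Siah2* (-0.28, SE 0.182) and *Fbxw7* (0.06, SE 0.097). Of 9 tested haem genes 0 passed, 7 with positive differences (median 0.13, beside a median of 0.02 over all 12955 genes). A positive sign was held by 46.5% of all tested probe sets, a share counted per probe set and not per gene. *Cpox* and *Ppox*, the genes with negative differences, had further tested probe sets at -0.86 and -0.72, without overlap of the groups. Further tested probe sets of the other haem genes lay between -0.09 and 0.12. *Hmox2*, a haem oxygenase, had the smallest p, at 2544 and 2008 in the mutants and 1665, 1874 and 1771 in wild-type skin (0.35, SE 0.114, limma adjusted p = 0.358), followed by *Urod*, an enzyme of haem synthesis (0.17, SE 0.084). The median of the list was 0.25 in *Clock* mutant replicate 1 and 0.05 in replicate 2 relative to wild type.

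On the thyroid hormone side, *Thrsp*, a hormone responsive gene of fat synthesis, had the smallest p of the 6 tested responsive genes. Its intensity was 5545 and 3864 in the mutants and 6709, 5880 and 6415 in wild-type skin (log2 difference -0.45, SE 0.137, limma adjusted p = 0.334), and its other tested probe set was at -0.60. It was at -0.19 without *Clock* mutant replicate 2, in which adipocyte markers had a median of -0.24 relative to wild type, and the part of fat content in this value was not tested. *Klf9*, a Krüppel-like factor that thyroid hormone and glucocorticoids induce, was at -0.09 (SE 0.081). The responsive list had 0 members past the threshold, 2 positive and 4 negative (median -0.05). Of 9 genes of hormone transport and deiodination 5 were tested and 0 passed (median -0.09), among them *Crym*, which binds the hormone in the cytosol (0.40, SE 0.28), and *Dio2*, the deiodinase that makes the active hormone (0.51, SE 0.448), both with overlap of the groups. *Crym* was at 0.87 in *Clock* mutant replicate 1 and -0.08 in replicate 2 relative to wild type, so that its sign turned without replicate 1. *Dio2* had 2 further probe sets below the filter, at -0.24 and, without overlap, at -1.85 (limma adjusted p = 0.396 in the fit with no filter), with 13.7 and 11.9 in the mutants and 42, 43 and 53.9 in wild-type skin for the latter.

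With 5 arrays, the pattern of each receptor was matched closely by many genes. Over 10208 genes above the 60th percentile of intensity, 224 had a Pearson r of over 0.95 with *Nr1d1* and 107 with *Nr1d2* across the 5 arrays. These arrays share tissue, scaling and the stage assigned by histology, while hair shaft and root sheath markers differed between them. The closest were *Xirp1* (r = 0.999), *Cnn2* (0.998) and *Ggh* (0.998) for *Nr1d1*, and *Evi5l* (0.998), *Aldh4a1* (0.998) and *Zfp322a* (0.997) for *Nr1d2*. For *Rora*, *Thra* and *Thrb* the closest were *Spry2* (0.995), *Bsdc1* (0.998) and *Rhbdd3* (0.999). These values describe 5 points and were not tested.

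The tissue matched its label. All 6 epidermal, 5 dermal fibroblast and 5 skeletal muscle markers were tested with intensities of at least 1427, and 0 of them passed. Hair shaft and root sheath markers stood apart and differed between arrays, although every sample was staged as telogen. All 5 markers had positive differences at an unadjusted p under 0.05 in limma, as had 4.09% of all tested probe sets. None passed the adjusted threshold. The groups overlapped at *Krt25*, *Krt27* and *Krt71* and did not at *Krt31* and *Tchh*. The median was 2.16, and the summed intensity was 1153 to 6716 in mutant and 422 to 1251 in wild-type skin, with none at 0. The highest sum was that of *Clock* mutant replicate 1. The median of the list relative to wild type was 3.32 in *Clock* mutant replicate 1 and 1.00 in replicate 2, below the 1.19 of wild-type replicate 1. On the array of *Clock* mutant replicate 1, the 3′ probe set of pyruvate carboxylase was 54.1 times as bright as the 5′ one, and 19.1 to 28.1 times on the others. The same ratio for *Gapdh*, a sign of RNA quality, was 1.05 and 0.988 in the mutants and 0.902, 0.86 and 0.955 in wild-type skin, so that it separated the genotypes without overlap, as did *Nr1d1* and *Nr1d2*. Its part in their differences was not tested. Without *Clock* mutant replicate 1, *Nr1d1* was at 0.59 and the brighter *Nr1d2* probe set at -0.40. The remaining mutant had a *Gapdh* ratio of 0.988, above all wild-type arrays, so that ratio and genotype stayed confounded. Arrays correlated with each other at 0.95 to 0.96.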

How the data were processed

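Total RNA (11 µg) of dorsal skin was labelled with biotin per the labels, and the authors deposited MAS5 signal intensities on a linear scale, 1 per probe set and array, with mismatch signal subtracted and each array scaled by a single factor. The trimmed mean of every array was 500.0. The sources used here give no version of MAS5. The largest log2 gap between array medians was 0.16, and this scaling was to be replaced only above 0.2. Of 45101 probe sets, 64 were controls. Genes were named from the platform annotation where a probe set had 1 symbol (34945, against 932 with several and 9160 with none).

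A floor of 1 (reached by 2441 values) preceded the log2 step. Dim probe sets, below the 40th percentile of the mean (18015), were dropped. Genotypes were compared over 27022 probe sets with limma 3.58.1 in R 4.3.3 (intensity trend, two-sided, prior of 6.04 degrees of freedom), with Benjamini-Hochberg adjustment over all of them and a threshold of 0.05. The study's methods state no test for these arrays. A gene in a list stands for its brightest tested probe set. The exact permutation test used SciPy 1.17.1. The labels call the replicates biological. Precision is limited by having 5 arrays.

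All probe sets of the members were named, with every RRE, RAR and RXR gene measured and the 2 smallest p of each other list. Further probe sets of these genes, of *Med1* and of the haem genes were added after their values were seen. The members and lists were chosen with earlier results of these data known, and no set test was run. On simulated arrays the limma fit was checked (27022 probe sets, 200 changed, 20 runs), and it recovered 9.3% of log2 changes of 0.5, 51.3% of 1 and 85.1% of 2, with 2.45 false calls per run. Alternatives were other normalizations, filters, log scales, priors, a Cyber-T style test (window 101, prior weight 10), a replicate block and the omission of each array in turn.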

Additional observations from a re-analysis of the deposited data

How the results depend on the processing

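*Nr1d1* kept a positive and both *Nr1d2* probe sets a negative difference under all alternatives run. The values ran from 0.58 to 0.74 for *Nr1d1* and from -0.64 to -0.40 and -0.87 to -0.32 for *Nr1d2*. The difference of *Nr1d1* minus *Nr1d2* ranged from 0.99 to 1.35. Settings that changed only the filter, the prior or the test left a log2 difference as it was. Where the groups do not overlap, leaving out a single array cannot turn the sign, so most of these alternatives could not have reversed it. Of 258 values of receptor probe sets under alternatives, 234 kept their sign and side of the threshold, 23 changed sign and 1 passed the threshold. The 258 include the values that some settings leave unchanged. No receptor probe set passed in the reported fit, so that keeping the side of the threshold meant not passing. The count is therefore no measure of how stable the differences are. Those that changed sign lay at *Rora*, *Rorb*, *Thra* and *Thrb*, where differences were small or the probe sets dim, and the cause was not tested. With median centring, *Rora* 1424034_at was at 0.063, 1455165_at at 0.018, 1458129_at at 0.0084 and 1441085_at at 0.081, and *Thra* 1443952_at at 0.042. With quantile normalization *Rora* 1441085_at was at 0.11. With the replicate number as a block it was at 0.22 and *Thrb* at 0.12.

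Leaving out each array in turn, the difference ran from -0.083 to 0.016 at *Rora* 1424034_at, from -0.19 to 0.049 at 1455165_at, from -0.28 to 0.092 at 1436325_at, from -0.26 to 0.10 at 1458129_at and from -0.28 to 0.22 at 1441085_at. It ran from -0.68 to 0.024 at *Rorb* 1425162_at, from -0.054 to 0.15 at *Thra* 1454675_at, from -0.14 to 0.046 at 1443952_at, from -0.11 to 0.27 at 1426997_at and from -0.31 to 0.12 at *Thrb*. The count of receptor probe sets past the threshold ran from 0 to 1, the 1 being *Nr1d2* without *Clock* mutant replicate 2.

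Over all probe sets, 24 passed. The count was 10 with no filter, 0 without a trend in the prior (2631 at an unadjusted p under 0.05), 65 with the Cyber-T style test and 106 with the replicate block, and 0 to 239 with an array left out. It was 239 without *Clock* mutant replicate 2, and 0 without wild-type replicate 2 or replicate 3. In fits without a mutant array the lone mutant was assumed to vary like wild type. Deviations of same-numbered arrays correlated at 0.0078 and 0.0986 over 2 pairs, and those of differently numbered arrays at -0.0986 to 0.0796. With 2 mutants, the deviations of replicate 1 mirror those of replicate 2. These values therefore could not tell whether the numbers pair the mice. In the simulation, 9.3% of log2 changes of 0.5 and 51.3% of changes of 1 passed with 5 arrays.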
